A study of Mus musculus with 16 samples.

Results

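The genes described here are 10 members of the fibroblast growth factor (FGF) pathway that are associated with branching of the seminal vesicle (SV), out of 31274 genes in the expression table. They were taken by name: the ligands *Fgf2*, *Fgf7* and *Fgf10*, the receptors *Fgfr1*, *Fgfr2*, *Fgfr3* and *Fgfr4*, and the feedback inhibitors *Spry1*, *Spry2* and *Spry4*. RNA from the SVs of C57BL/6 male mice at week 5 of age was sequenced in 4 groups of 4 samples. Wild type (WT) and αERKO pups received subcutaneous diethylstilbestrol (DES), a synthetic oestrogen, at 2 µg per pup per day in corn oil on days 1 to 5 (WT-DES, αERKO-DES) or corn oil alone (WT-veh, αERKO-veh). αERKO mice were born to heterozygous C57BL/6 parents and lack a working *Esr1*, which encodes oestrogen receptor α (ERα), in the whole body, so the SV is not the sole tissue without it. WT pups were born to pregnant C57BL/6 females obtained from Charles River Laboratories. Genotype and the source of the mice therefore cannot be told apart. The SV was separated from the anterior prostate by dissection. The methods for RNA extraction name 3 pools for WT-DES and 4 single mice for each other group, while those for RNA-seq state 4 samples in each group, so the WT-DES samples may be pools of animals and p-values measure the spread between samples as sequenced.

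FGFs are secreted or matrix-bound ligands that act through receptor tyrosine kinases together with heparan sulphate. In the male accessory glands *Fgf10* and *Fgf7* are made by the mesenchyme, and their proteins bind the IIIb form of FGFR2 on the epithelium, where they drive budding and branching. Mice without *Fgf10* do not form normal SVs. Receptor signalling runs through FRS2 and the MAP kinases and induces Sprouty genes, whose products dampen the same signalling inside the cell. Values are FPKM, fragments scaled to transcript length and to library size, which allows levels of different genes to be compared, but a value per gene does not separate the IIIb and IIIc forms of a receptor.

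The upstream sequences of *Fgf7* and *Fgf10* are shown because these ligands share a receptor and both were called higher with DES in WT. Each is the 250 bases before the start in the RefSeq promoter table on GRCm38.p6, with matches to GGTCA, the core of an oestrogen receptor binding site, in capitals on either strand (TGACC is the reverse complement).
Fgf7, chr2:126034408-126034657, plus strand: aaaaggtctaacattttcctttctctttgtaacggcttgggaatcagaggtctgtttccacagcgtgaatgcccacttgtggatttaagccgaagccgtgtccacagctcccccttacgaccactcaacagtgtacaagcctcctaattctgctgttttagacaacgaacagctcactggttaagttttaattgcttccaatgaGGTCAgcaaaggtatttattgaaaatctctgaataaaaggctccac
Fgf10, chr13:118714449-118714698, plus strand: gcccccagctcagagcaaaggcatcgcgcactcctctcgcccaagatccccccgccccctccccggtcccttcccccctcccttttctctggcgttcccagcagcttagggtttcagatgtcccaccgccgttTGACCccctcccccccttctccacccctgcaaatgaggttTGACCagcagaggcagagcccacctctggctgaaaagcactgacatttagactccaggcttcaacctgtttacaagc
The *Fgf7* window held 1 match and the *Fgf10* window 2, and 35.2% of the 32851 windows in the table held at least 1 match. Of the 9 windows matched to 8 members, those of *Fgf7* and *Fgf10* and 1 of the 2 windows of *Fgfr3* held the core, while *Fgf2*, *Fgfr2*, *Fgfr4*, *Spry1* and *Spry2* had 0 matches. The full palindrome GGTCANNNTGACC, which contains the core on both strands, was in 0 of these 9 windows and in 0.0639% of all windows. AP-1 (TGANTCA, 6.75% of all windows), ETS (CCGGAAGT, 2.88%) and the TATA box (TATAAA, 12.4%), which do not contain the core, also had no match in the 9 windows, which says only that these letters are not there. No window of *Fgfr1* or *Spry4* was examined, so whether theirs hold these motifs was not tested.

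On GRCm38.p6 *Fgf2* lies on chromosome 3 from 37348477 to 37410106 (plus strand), and *Spry1* on the same chromosome from 37639947 to 37644599 (plus strand). *Fgfr1* lies on chromosome 8 from 25518759 to 25575718 (plus strand), *Fgfr2* on chromosome 7 from 130162451 to 130266808 (minus strand) and *Fgfr3* on chromosome 5 from 33721724 to 33737068 (plus strand). *Spry2* lies on chromosome 14 from 105891947 to 105896819 (minus strand).

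In WT-veh the members spanned a wide range of levels. *Fgfr2* was the highest at 38.5 ± 5.30 FPKM (mean ± SD, n = 4), followed by *Spry1* at 23.4 ± 4.09, *Fgfr1* at 18.9 ± 1.20 and *Spry2* at 15.8 ± 1.75. The ranges of *Spry1* and *Fgfr1* overlapped, as did those of *Fgfr1* and *Spry2*, so these neighbours were not separated by their spread. *Fgfr3* came next at 7.55 ± 0.475, *Fgf7* at 5.21 ± 0.634, *Fgf10* at 4.02 ± 0.247 and *Spry4* at 2.47 ± 0.273, each without overlap with the next in order. *Fgf2* at 1.17 ± 0.308 and *Fgfr4* at 0.688 ± 0.124 were the lowest and overlapped. *Fgfr2* stood first in WT-DES as well, at 53.5 ± 9.35 FPKM, but there its range overlapped that of *Fgfr1* at 48.4 ± 4.91. Without ERα *Fgfr2* was again the highest, at 41.1 ± 4.88 FPKM with vehicle and 36.8 ± 3.93 with DES.

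**Figure D1:**
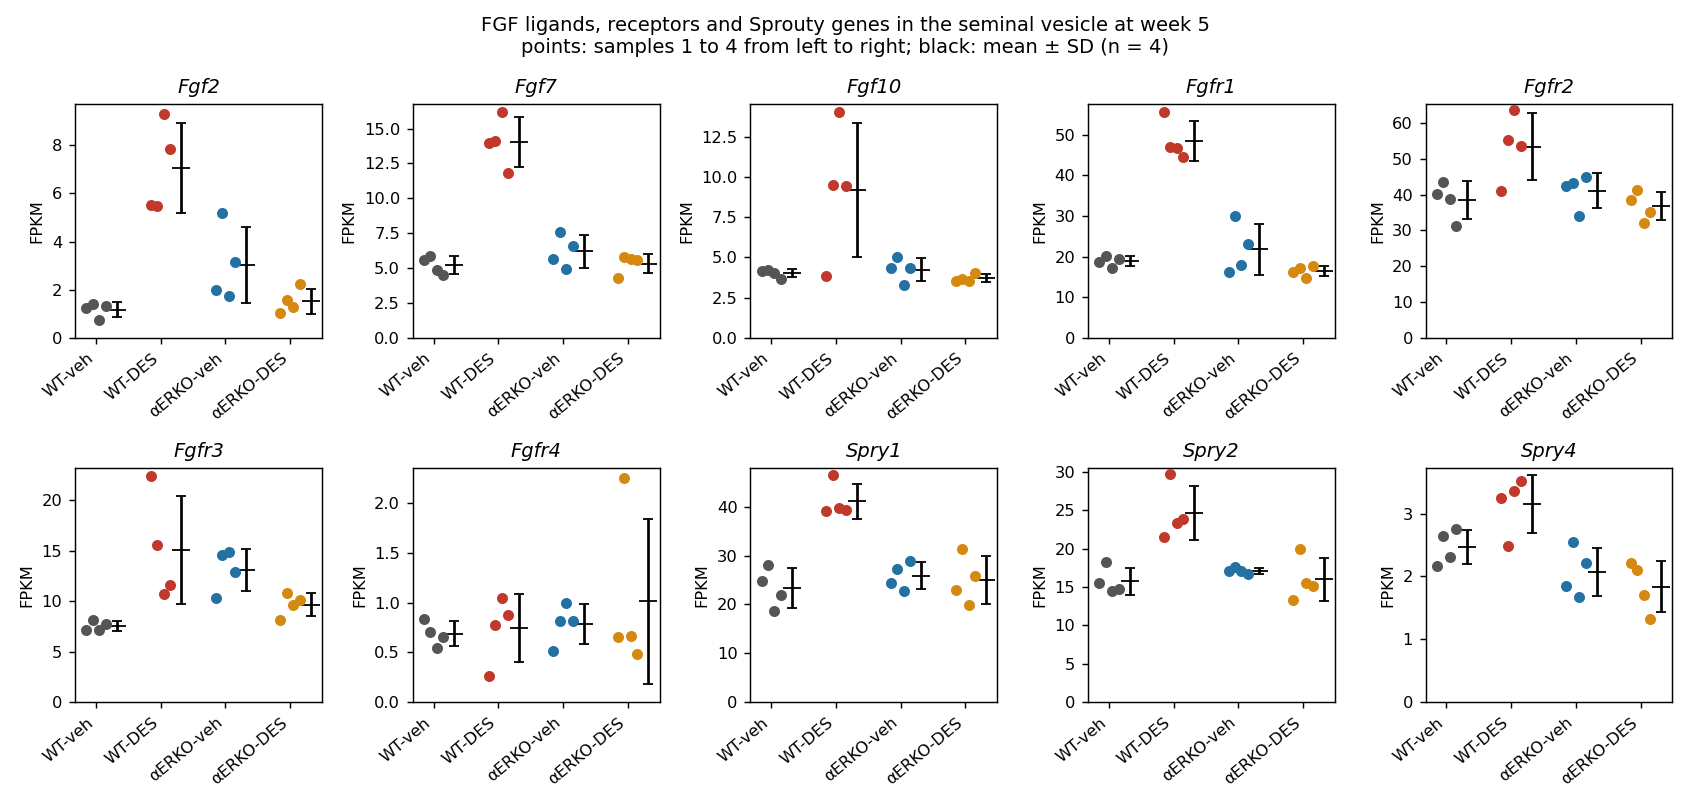
FPKM of the 10 members in each sample, with 1 panel per gene and a vertical axis that starts at 0. Points are samples 1 to 4 of each group from left to right, and black marks give the mean ± SD (n = 4). WT-DES stood above the other groups for *Fgf2*, *Fgf7* and *Fgfr1*, while WT-DES sample 1 lay among the other groups for *Fgf10*.

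The first comparison asks what neonatal DES did to these genes in the WT SV. The 3 ligands, *Fgfr1*, *Fgfr3*, *Spry1* and *Spry2* were higher with DES in WT mice, by 1.56-fold to 6.00-fold in mean FPKM, and no member was called lower. Calls needed a limma adjusted p of 0.05 or less, a ratio of group means of 1.5 or more, and a mean above 1 FPKM in 1 of the groups compared. These 7 of 10 called members stand beside 28.9% of the 15988 genes tested that were called higher. The median log2 change was 0.83 over the 10 members and −0.01 over all genes tested. In 6 members (*Fgf2*, *Fgf7*, *Fgfr1*, *Fgfr3*, *Spry1* and *Spry2*) every WT-DES sample was above every WT-veh sample, a separation shown by 32.7% of the genes tested. All 10 members passed the minimum of a mean FPKM above 1 in at least 1 of the 4 groups, and *Fgfr4* did so only in αERKO-DES, where sample 2 had 2.25 FPKM and the others 0.48 to 0.67. With means below 1 FPKM in the other groups, *Fgfr4* could not be called in WT-DES or αERKO-veh against WT-veh, whatever its change.

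*Fgf7*, the keratinocyte growth factor made by stromal cells, had 5.57, 5.89, 4.86 and 4.51 FPKM in WT-veh samples 1 to 4. In WT-DES it had 14.0, 14.1, 16.2 and 11.8 FPKM. The lowest WT-DES sample was well above the highest WT-veh sample. The ratio of means was 2.70 and the log2 change of log2(FPKM + 1) was 1.27 (SE 0.13, limma adjusted p = 4.48e-07).

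*Fgf10*, the mesenchymal ligand needed for SV formation, had 4.17, 4.23, 4.01 and 3.68 FPKM in WT-veh. The WT-DES samples had 3.82, 9.47, 14.0 and 9.43 FPKM. Sample 1 of WT-DES lay within the WT-veh range, and the other samples were above it, so the groups overlapped by 1 sample. The ratio of means was 2.28, with a log2 change of 0.91 (SE 0.24, limma adjusted p = 0.00301). It was 1.23 without WT-DES sample 1, 0.69 without WT-DES sample 3 (limma adjusted p = 0.0104) and 0.66 under quantile normalization (limma adjusted p = 0.0409).

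*Fgf2*, a heparin-bound ligand with broad receptor binding, showed the widest ratio among the members. It had 1.24, 1.39, 0.72 and 1.34 FPKM in WT-veh, and 5.51, 5.49, 9.30 and 7.85 FPKM in WT-DES. There was no overlap between the groups. The ratio was 6.00 and the log2 change 1.87 (SE 0.24, limma adjusted p = 5.41e-06). *Nudt6*, a gene on the opposite strand whose exons share 640 nt with *Fgf2*, had 22.2 ± 2.20 FPKM in WT-veh and 12.8 ± 1.05 in WT-DES (n = 4), and was called lower (log2 change −0.74, SE 0.09, limma adjusted p = 2.03e-06). Whether reads were assigned by strand is not given in the sources used here, so values of *Fgf2* and *Nudt6* are uncertain in the shared part.

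Among the receptors, *Fgfr1*, which in many organs is expressed in mesenchyme, had 18.8, 20.1, 17.3 and 19.4 FPKM in WT-veh. In WT-DES it had 55.6, 46.9, 46.7 and 44.5 FPKM. The groups did not overlap, and the ratio was 2.56 with a log2 change of 1.31 (SE 0.14, limma adjusted p = 1.02e-06). *Fgfr3*, another receptor of the family, had 7.15, 8.12, 7.17 and 7.77 FPKM in WT-veh and 22.4, 15.6, 10.7 and 11.6 in WT-DES. Sample 1 was the highest WT-DES sample here, in contrast to its place for *Fgf10*, and the groups did not overlap. The ratio was 2.00 and the log2 change 0.86 (SE 0.18, limma adjusted p = 0.000455).

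*Fgfr2*, the receptor of *Fgf7* and *Fgf10*, had 40.2, 43.7, 38.9 and 31.1 FPKM in WT-veh. Its values in WT-DES were 41.1, 55.2, 63.8 and 53.8 FPKM. Samples 2, 3 and 4 of WT-DES were above the WT-veh range and sample 1 was inside it. The log2 change was 0.46 (SE 0.13, limma adjusted p = 0.00618), but the ratio of 1.39 was below the 1.5-fold limit, so *Fgfr2* was not called. Under quantile normalization its log2 change was 0.88 and it was called (limma adjusted p = 0.000194). *Ctbp2*, which shares 314 nt of annotated exon with *Fgfr2* on the same strand, had a log2 change of 0.39 (SE 0.07, limma adjusted p = 0.00017) and was not called either. *Fgfr4* lay between 0.26 and 1.05 FPKM in the 8 WT samples, with a log2 change of 0.03 (SE 0.22, limma adjusted p = 0.921).

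The Sprouty genes are induced by receptor signalling. *Spry1* had 24.9, 28.1, 18.6 and 21.9 FPKM in WT-veh and 39.0, 46.5, 39.6 and 39.4 in WT-DES, with no overlap. Its ratio was 1.76 and its log2 change 0.80 (SE 0.14, limma adjusted p = 8.3e-05). *Spry2* had 15.6, 18.3, 14.5 and 14.8 FPKM in WT-veh and 21.5, 29.7, 23.4 and 23.9 in WT-DES, again with no overlap. Its ratio of 1.56 was close to the limit (log2 change 0.61, SE 0.11, limma adjusted p = 0.000199), and without WT-DES sample 2 the log2 change was 0.52 and the call was lost. *Spry4* overlapped between the groups, with 2.17 to 2.75 FPKM in WT-veh and 2.48 to 3.51 in WT-DES (log2 change 0.26, SE 0.13, limma adjusted p = 0.0817).

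**Figure D2:**
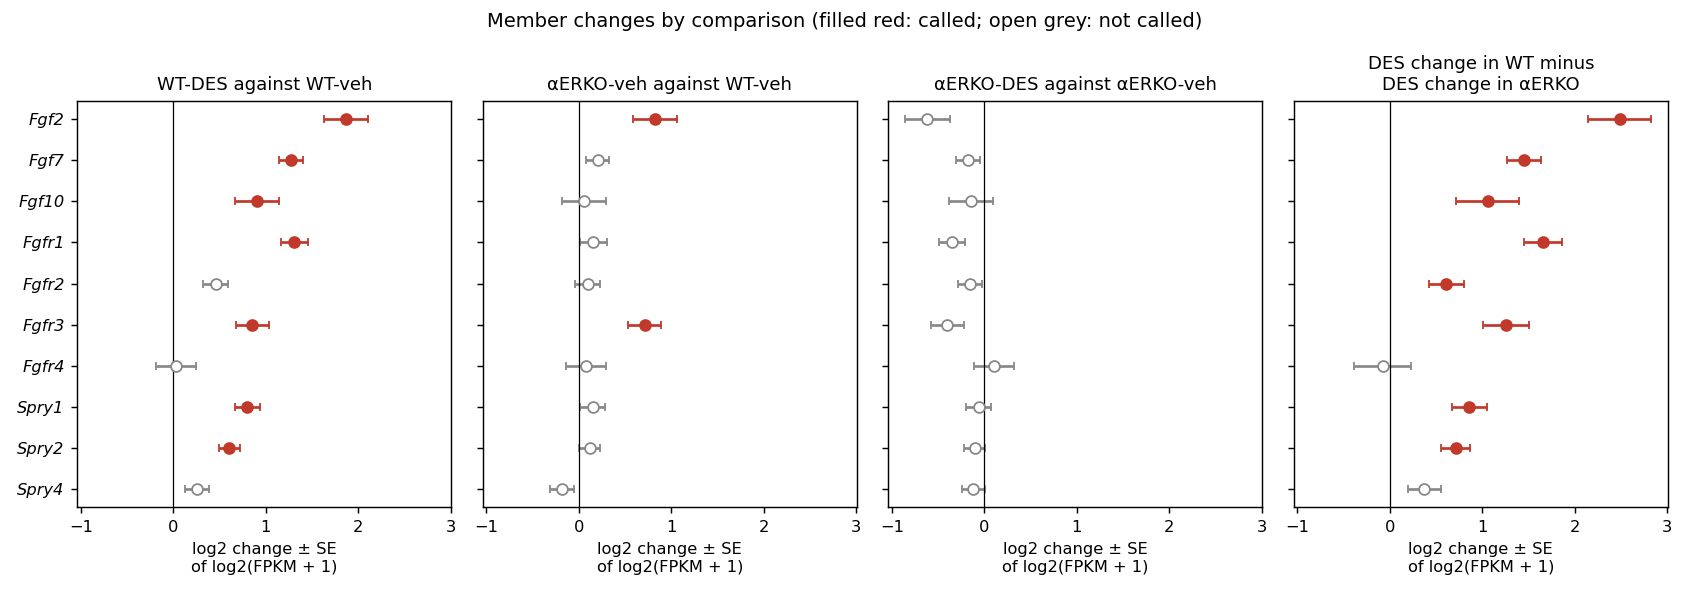
Log2 change ± SE of log2(FPKM + 1) for each member in 4 comparisons, from 1 limma model of the 16 samples. Filled red points were called and open grey points were not: 7 in WT-DES against WT-veh, 2 in αERKO-veh against WT-veh, 0 in αERKO-DES against αERKO-veh, and 8 in the difference between the WT and αERKO changes with DES.

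The scale between libraries was also set without the 20 genes of highest mean FPKM, which took 1.61 to 14.5% of the total in WT-DES samples and 10.6 to 17.4% in the other samples. This moved the median of all genes to a log2 change of 0.38 with DES in WT, and the split of calls from 4613 higher and 3815 lower to 6953 higher and 1831 lower. The members shifted with it: *Fgf7* to 1.66, *Fgf10* to 1.28, *Fgfr1* to 1.73 and *Fgf2* to 2.20, and *Fgfr2* at 0.88 and *Spry4* at 0.58 were then called as well. Quantile normalization moved the split the other way, to 3639 higher and 3920 lower. Under it the log2 change of *Spry4* was −0.23, so the direction of *Spry4* in WT depends on the scaling. The rank correlation across genes of transcript length with expression relative to each gene's level over the 16 samples also separated these groups, at −0.519 to −0.207 in WT-veh and 0.164 to 0.193 in WT-DES. The other groups had −0.0902 to 0.444 (αERKO-veh) and −0.284 to 0.169 (αERKO-DES). After a correction for length the 7 members were still called, with log2 changes from 0.75 for *Fgfr3* to 1.57 for *Fgf2*, and *Spry2* moved from 0.61 to 0.81.

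Ratios within a sample do not depend on that scale and describe the balance between members, with no test. *Fgfr2* made up 52.8 to 60.9% of the summed FPKM of the 4 receptors in WT-veh and 34.5 to 52.2% in WT-DES. The share of *Fgfr1* was between 27.1 and 32.9% in WT-veh and between 38.2 and 46.6% in WT-DES, with no overlap for either receptor. The sum itself was 65.6 ± 5.74 FPKM in WT-veh and 118 ± 4.94 in WT-DES, and without ERα it was 76.8 ± 9.98 with vehicle and 63.9 ± 5.90 with DES (n = 4). In αERKO-veh and αERKO-DES *Fgfr1* was 23.3 to 33.8% and 24.2 to 27.8% of the sum, ranges that overlap WT-veh. The ratio of *Fgfr2* to *Fgfr1* was 2.04 ± 0.293 in WT-veh and 1.12 ± 0.268 in WT-DES, and in αERKO mice it was 1.98 ± 0.486 with vehicle and 2.24 ± 0.183 with DES. For the ligands, *Fgf10* per *Fgf7* was between 0.718 and 0.825 in WT-veh and between 0.670 and 0.866 in WT-DES samples 2 to 4, and 0.273 in WT-DES sample 1.

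**Figure D3:**
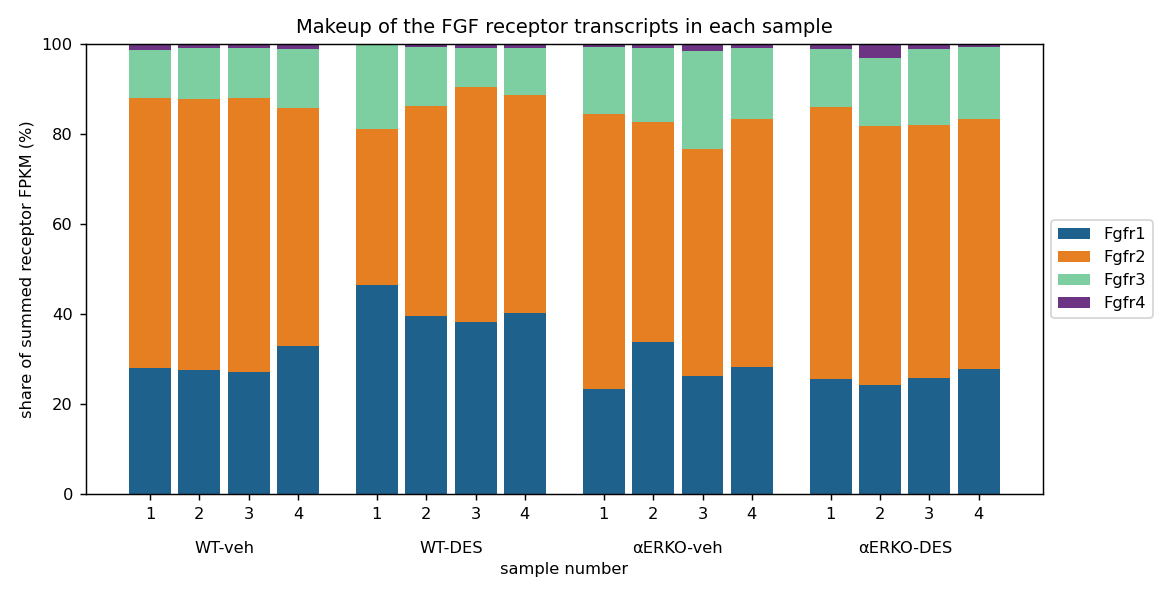
Share of each receptor in the summed FPKM of *Fgfr1*, *Fgfr2*, *Fgfr3* and *Fgfr4*, as 1 stacked bar per sample on an axis from 0 to 100%. *Fgfr1* took 38.2 to 46.6% in the WT-DES samples and at most 33.8% in the other 12 samples.

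The second comparison sets αERKO against WT mice without DES, where the absence of ERα and the source of the mice cannot be told apart. *Fgf2* and *Fgfr3* were higher in αERKO-veh than in WT-veh, which is 2 of 10 members beside 4.5% of the genes tested that were called higher. The other 8 were not called, and *Fgfr4* among them could not be, with means below 1 FPKM in both groups. The 719 genes behind that share were 254 (1.59%) without αERKO-veh sample 2, 428 (2.68%) without WT-veh sample 3 and 313 (2.09%) after a correction for transcript length, but 1031 (6.44%) without αERKO-veh sample 1. *Fgfr3* had 10.3, 14.5, 14.8 and 12.8 FPKM in αERKO-veh, all above the WT-veh samples, with a ratio of 1.74 and a log2 change of 0.71 (SE 0.18, limma adjusted p = 0.0128). *Fgf2* had 1.99, 5.20, 1.74 and 3.13 FPKM in αERKO-veh, also above every WT-veh sample, and sample 2 was the highest. Its ratio was 2.57 and its log2 change 0.82 (SE 0.24, limma adjusted p = 0.0230). This call was lost without αERKO-veh sample 2 (log2 change 0.59), without αERKO-veh sample 4 (0.78), without WT-veh sample 3 (0.71) and after the length correction (0.63), as well as with a minimum mean FPKM of 5. At an adjusted p of 0.01 neither gene was called.

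The ligands *Fgf10* and *Fgf7* were not called in αERKO-veh. *Fgf10* had 4.33, 5.01, 3.26 and 4.37 FPKM (log2 change 0.05, SE 0.24, limma adjusted p = 0.907) and *Fgf7* had 5.63, 7.62, 4.92 and 6.60 (log2 change 0.20, SE 0.13, limma adjusted p = 0.256). Their ranges overlapped those of WT-veh. *Fgfr1* had 16.2, 29.9, 17.8 and 23.1 FPKM, with sample 2 again the highest (log2 change 0.16, SE 0.14, limma adjusted p = 0.445). The log2 changes of *Fgfr2*, *Fgfr4*, *Spry1*, *Spry2* and *Spry4* lay between −0.18 and 0.15.

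The third comparison asks what DES did without ERα. No member was called in αERKO-DES against αERKO-veh with limma, beside 1.49% of all genes tested in either direction, and 3 members had an unadjusted p under 0.05. These were *Fgf2* (log2 change −0.61, SE 0.24, limma adjusted p = 0.135), *Fgfr1* (−0.35, SE 0.14, limma adjusted p = 0.151) and *Fgfr3* (−0.40, SE 0.18, limma adjusted p = 0.176), so their values pointed down. The number of genes called in all, 239, changed with single samples: it was 1 to 3 without αERKO-veh sample 2 or 4, αERKO-DES sample 1, 2 or 3, or WT-veh sample 3. Leaving out WT-veh sample 1 or 2, or WT-DES sample 3 or 4, gave 76, 149, 154 and 146 genes, and the number was 558 without WT-DES sample 1 and 653 without αERKO-veh sample 1. *Fgf2* had 1.04, 1.55, 1.27 and 2.23 FPKM in αERKO-DES, which overlapped αERKO-veh. With sample weights in the model *Fgf2* was called lower, at −0.704, but 1119 genes were then called in all, and 6.28% of the genes tested were called lower. Without αERKO-veh sample 2 the log2 change of *Fgf2* was −0.38. *Fgf10* had 3.55, 3.65, 3.55 and 4.05 FPKM in αERKO-DES (log2 change −0.15, SE 0.24, limma adjusted p = 0.737). *Fgf7* had 4.27, 5.80, 5.67 and 5.55 (log2 change −0.18, SE 0.13, limma adjusted p = 0.393). Both overlapped αERKO-veh.

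The log2 change with DES in WT mice less the log2 change in αERKO mice tests the difference between the genotypes itself. It was called for 8 of 10 members, each with the larger log2 change in WT, beside 29.6% of the genes tested in that direction. *Fgf2* differed by 2.49 (SE 0.34, limma adjusted p = 1.35e-05), *Fgfr1* by 1.66 (SE 0.20, limma adjusted p = 4.64e-06) and *Fgf7* by 1.45 (SE 0.18, limma adjusted p = 5.71e-06). The differences were 1.25 for *Fgfr3*, 1.06 for *Fgf10*, 0.86 for *Spry1*, 0.71 for *Spry2* and 0.61 for *Fgfr2*. That of *Fgf10* (limma adjusted p = 0.0114) was 0.66 and not called under quantile normalization (limma adjusted p = 0.147). The call of *Fgfr2* (limma adjusted p = 0.0094) was lost when WT-veh sample 4, WT-DES sample 3, αERKO-veh sample 4 or αERKO-DES sample 3 was left out, with values of 0.52 to 0.57, and after the length correction (0.45). At an adjusted p of 0.01 *Fgf10* was not called. *Fgfr4* (−0.08, limma adjusted p = 0.83) and *Spry4* (0.37, limma adjusted p = 0.0735) were not called, but *Fgfr4* was under quantile normalization (−0.74) and *Spry4* without the 20 most abundant genes in the scale (0.79).

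Between the exposed groups, 8 of 10 members were lower in αERKO-DES than in WT-DES, beside 29.6% of the genes tested that were called lower. This comparison shares the WT-DES samples with the first one, so it is not a separate measurement of their level. The largest differences were again in *Fgf2* (4.62-fold lower), *Fgfr1* (2.94-fold lower), *Fgf7* (2.64-fold lower) and *Fgf10* (2.48-fold lower). *Spry4*, which was not called against WT-veh, was 1.72-fold lower in αERKO-DES, with 2.21, 2.10, 1.70 and 1.32 FPKM, all below the WT-DES samples (log2 change −0.56, SE 0.13, limma adjusted p = 0.00105), but its log2 change was 0.08 under quantile normalization. With the fold limit set on the log2 difference the calls of *Spry4* and *Fgfr3* were lost, which left 6 members. The call of *Fgfr3* (−0.54, limma adjusted p = 0.0115) was also lost at an adjusted p of 0.01, under quantile normalization (−0.45), after the length correction (−0.47), and without WT-DES sample 1 (−0.34) or αERKO-DES sample 1 (−0.47). The call of *Spry2* (−0.59) was lost without WT-DES sample 2 (−0.50) or αERKO-DES sample 1 (−0.52). *Fgfr2*, at 1.45-fold lower (limma adjusted p = 0.00271), was called without WT-DES sample 1 (−0.63) or αERKO-DES sample 2 (−0.57), without the 20 most abundant genes in the scale (−0.89) and under quantile normalization (−0.93). *Fgfr4* was called higher under quantile normalization alone (0.76). Against WT-veh, 0 members were called in αERKO-DES with limma, beside 3.18% of all genes tested, and *Spry4* alone had an unadjusted p under 0.05 (log2 change −0.30, SE 0.13, limma adjusted p = 0.148). The 508 genes behind that share were 259 and 217 without WT-veh sample 3 or 4, 199 and 206 without αERKO-DES sample 3 or 4, and 883 without αERKO-DES sample 1.

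The other genes of the pathway were taken as 5 lists with 79 genes, of which 64 were tested. In WT-DES against WT-veh, 33 of them were called higher and 7 lower, and 23.9% of all genes tested were called lower. Their median log2 change was 0.54. Of the 33, *Fgf9*, *Fgf14*, *Flrt1*, *Klb* and *Hs6st2* had a mean above 1 FPKM in WT-DES alone, so they could be tested only because they are high there. That leaves 59 genes with 28 higher and 7 lower, beside 23.5% called higher when all such genes are left out of the whole table, a count added after the values were seen. In the list named other FGF ligands 6 of 19 genes were tested, with 4 higher, *Fgf9* and *Fgf14* among them, and 1 lower. The lower one was *Fgf1*, a ligand that binds all the FGF receptors, which had 45.1 ± 2.62 FPKM in WT-veh and 19.7 ± 4.42 in WT-DES (n = 4, log2 change −1.18, limma adjusted p = 3.36e-07). Its mean in WT-veh was above that of every member, but its range overlapped that of *Fgfr2*. The mean of *Fgf1* in αERKO-veh was 43.7 FPKM and in αERKO-DES 43.1 FPKM. *Fgf9* rose from 0.682 to 2.12 FPKM (log2 change 0.86, limma adjusted p = 7e-05). The others called higher were *Fgf11*, *Fgf12* and *Fgf14*, with log2 changes of 0.57, 0.45 and 0.58. These genes and *Fgf13*, which was not called, encode FGF-like proteins that stay inside the cell, so they do not count as ligands of the receptors.

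All 5 tested receptor-like and co-receptor genes were called higher in WT-DES, of which *Flrt1* and *Klb* passed the minimum through WT-DES alone. *Flrt2*, a transmembrane protein that can bind FGF receptors, went from 2.65 to 13.6 FPKM (log2 change 2.00, limma adjusted p = 5.54e-08). *Flrt3* (1.17), *Fgfrl1*, which encodes a receptor without a kinase (0.81), and *Flrt1* (0.78) followed, and *Klb*, the co-receptor β-Klotho, had 0.55. Of the 21 heparan sulphate and ligand-binding genes, 11 were higher and 1 lower, beside 28.9% and 23.9% of all genes tested. *Gpc3*, a glypican, went from 6.80 to 53.9 FPKM (log2 change 2.84, limma adjusted p = 6.01e-08), and *Gpc6* (1.59) and the syndecan *Sdc1* (1.41) were also higher. The lower gene was *Fgfbp1*, whose product releases FGFs from the matrix, with 16.3 FPKM in WT-veh and 2.72 in WT-DES (log2 change −2.24, limma adjusted p = 0.00438).

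Of the 18 adaptors and MAPK cascade genes 2 were higher, 3 were lower and 13 were not called, with a median log2 change of −0.10, beside 28.9% of all genes tested called higher and 23.9% lower. *Plcg1*, which encodes phospholipase C gamma, was higher (1.21, limma adjusted p = 1.02e-07). *Map2k2*, which encodes the kinase MEK2, was lower (−1.25, limma adjusted p = 1.43e-08), as was *Hras* (−0.88). Of the 14 tested induced targets and feedback inhibitors, 11 were higher and 2 lower, beside the same shares of all genes tested. The MAP kinase phosphatase *Dusp6*, a usual target of FGF signalling, went from 11.1 to 25.0 FPKM (log2 change 1.10, limma adjusted p = 5.18e-08). *Fos* (1.54), *Cbl* (1.43), the FGF signalling inhibitor *Il17rd* (1.31) and *Egr1* (1.25) had the largest changes. The transcription factors of the ETV group differed in direction: *Etv5* (0.85) and *Etv1* (0.64) were higher, and *Etv4* (−0.65) was lower. *Myc* was lower too, at −1.19. *Spry3* is listed at 0 in every sample.

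**Figure D4:**
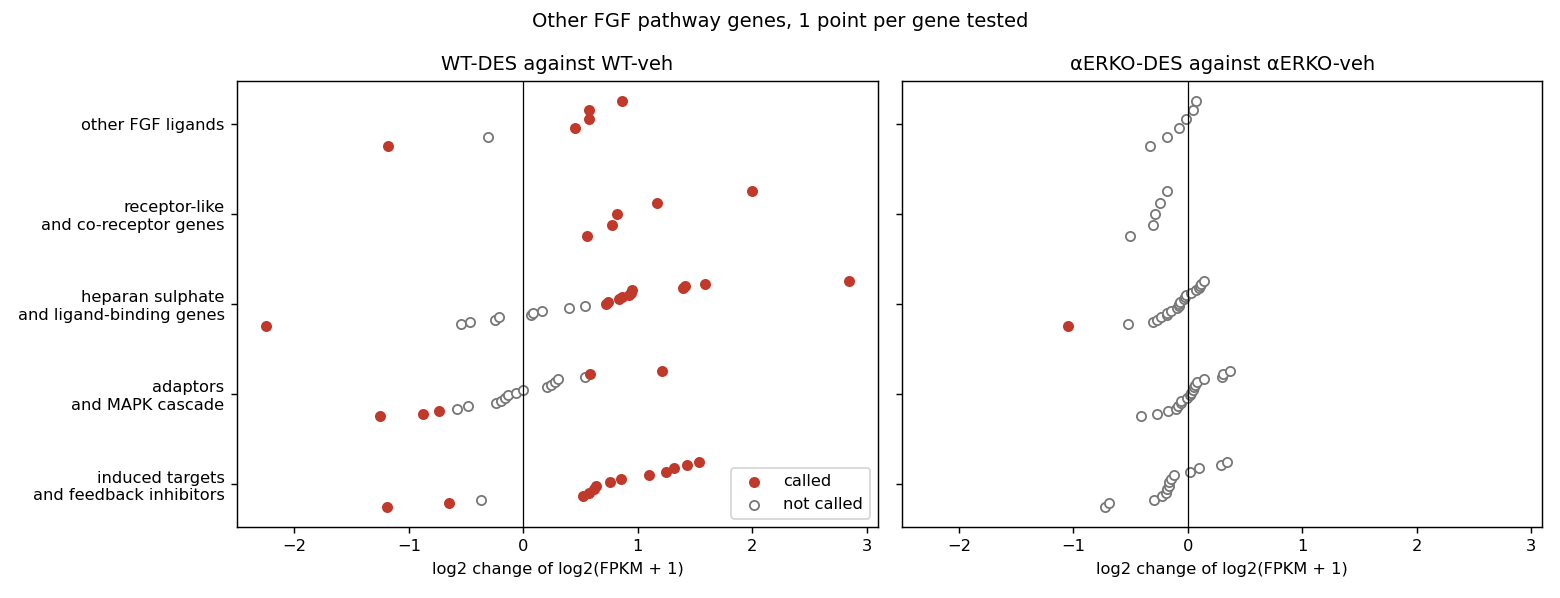
Log2 change of log2(FPKM + 1) of each tested gene of the 5 pathway lists, with WT-DES against WT-veh on the left and αERKO-DES against αERKO-veh on the right. Filled red points were called, 40 on the left and 1 on the right, where the called gene is *Gpc3*.

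In αERKO-veh against WT-veh, 4 of the 64 tested pathway genes were called higher and 1 lower, beside 4.5% and 2.63% of all genes tested. The higher ones were *Dusp4* (log2 change 1.20, limma adjusted p = 0.0034), a MAP kinase phosphatase, *Cbl* (1.06), *Braf* (0.85) and *Hs2st1* (0.72), a heparan sulphate sulphotransferase, and the lower one was *Myc* (−0.57). In αERKO-DES against αERKO-veh *Gpc3* was lower (−1.05, limma adjusted p = 0.0365) and no other pathway gene was called. For the difference between the genotypes in the change with DES, 33 pathway genes were called with the larger value in WT and 10 with the smaller, beside 29.6% and 26.9% of all genes tested. The 33 include *Fgf9*, *Fgf14*, *Flrt1*, *Klb* and *Hs6st2*, which could be tested only because they are high in WT-DES. A share of all genes without such genes was not computed for this contrast.

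Marker genes of cell types moved with these differences, and in bulk tissue fewer cells of a type and less RNA per cell cannot be told apart. The summed FPKM of 8 fibroblast markers, led by *Dcn* and collagens, ranged from 833.8 to 986.8 in WT-veh and from 2236 to 2460 in WT-DES, and 7 of the 8 were called higher. The sum of 8 epithelial markers had a range of 1903 to 2139 in WT-veh and of 999.7 to 1250 in WT-DES, with 5 of 8 called lower. That of 8 SV secretory genes was between 49390 and 57120 in WT-veh and between 2439 and 7933 in WT-DES, with 8 of 8 called lower. The leukocyte sum had a range of 42.3 to 65.4 in WT-veh and of 211 to 384 in WT-DES, with 10 of 10 higher. All 6 endothelial, 6 of 8 adipose and 2 of 4 basal epithelial markers were higher in WT-DES, and 5 of 8 smooth muscle, 5 of 5 anterior prostate and 2 of 10 skeletal muscle markers were lower. Over all genes tested 28.9% were called higher and 23.9% lower, so the skeletal muscle count was not above that share. WT-DES sample 1 stood apart, with a smooth muscle sum of 4293 against 997.1 to 1554 in samples 2 to 4. Without this sample 7 members were still called. No marker of these lists was at 0 in all samples of a group, and the part of cell composition in the members' changes was not tested.

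Set against the fibroblast sum, *Fgfr1* was 20.6 ± 1.34 per 1000 FPKM of markers in WT-veh and 20.9 ± 1.26 in WT-DES (n = 4). *Fgf7* was 5.69 ± 0.726 and 6.05 ± 0.711, and *Fgf10* was between 3.89 and 4.81 in WT-veh and between 1.55 and 5.99 in WT-DES. For these 3 genes the ranges of the groups overlapped on this scale. *Fgf2* was 1.27 ± 0.295 in WT-veh and 3.04 ± 0.831 in WT-DES, with no overlap, but in αERKO mice it was 3.46 ± 0.997 with vehicle and 2.53 ± 0.870 with DES, both overlapping WT-DES. Other members were lower in WT-DES on this scale, also without overlap. *Fgfr2* went from 42.2 ± 7.0 to 23.2 ± 4.51, *Spry1* from 25.5 ± 4.03 to 17.8 ± 2.12, *Spry2* from 17.3 ± 2.19 to 10.7 ± 1.91, *Spry4* from 2.70 ± 0.342 to 1.36 ± 0.195 and *Fgfr4* from 0.746 ± 0.0909 to 0.324 ± 0.151. *Fgfr3* overlapped, at 8.27 ± 0.753 and 6.46 ± 2.03. Between the exposed groups, all receptors and Sprouty members were higher in αERKO-DES than in WT-DES on this scale, without overlap. *Fgfr2* was 60.8 ± 6.16 in αERKO-DES and *Spry1* 41.4 ± 8.59. The 3 ligands overlapped between these groups. Set against the epithelial sum, *Fgfr2* was 19.1 ± 3.14 in WT-veh and 50.1 ± 12.7 in WT-DES, and *Fgfr3* was 3.74 ± 0.222 and 13.6 ± 3.25. On the epithelial scale every member but *Fgfr4* was higher in WT-DES without overlap, the Sprouty genes included, such as *Spry2*, from 7.81 ± 0.920 to 22.8 ± 4.10. Set against the leukocyte sum, *Fgf2* was 23.8 ± 7.58 in WT-veh and 24.9 ± 9.53 in WT-DES, and the ranges overlapped, while in αERKO-veh it was 71.5 ± 29.6, above every WT-veh sample. The other 9 members were lower in WT-DES on the leukocyte scale without overlap, such as *Fgf7*, from 106 ± 24.3 to 48.6 ± 9.25, and *Fgfr1*, from 386 ± 77.0 to 172 ± 52.2. These ratios were chosen after the values were seen and describe the levels, with no test.

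**Figure D5:**
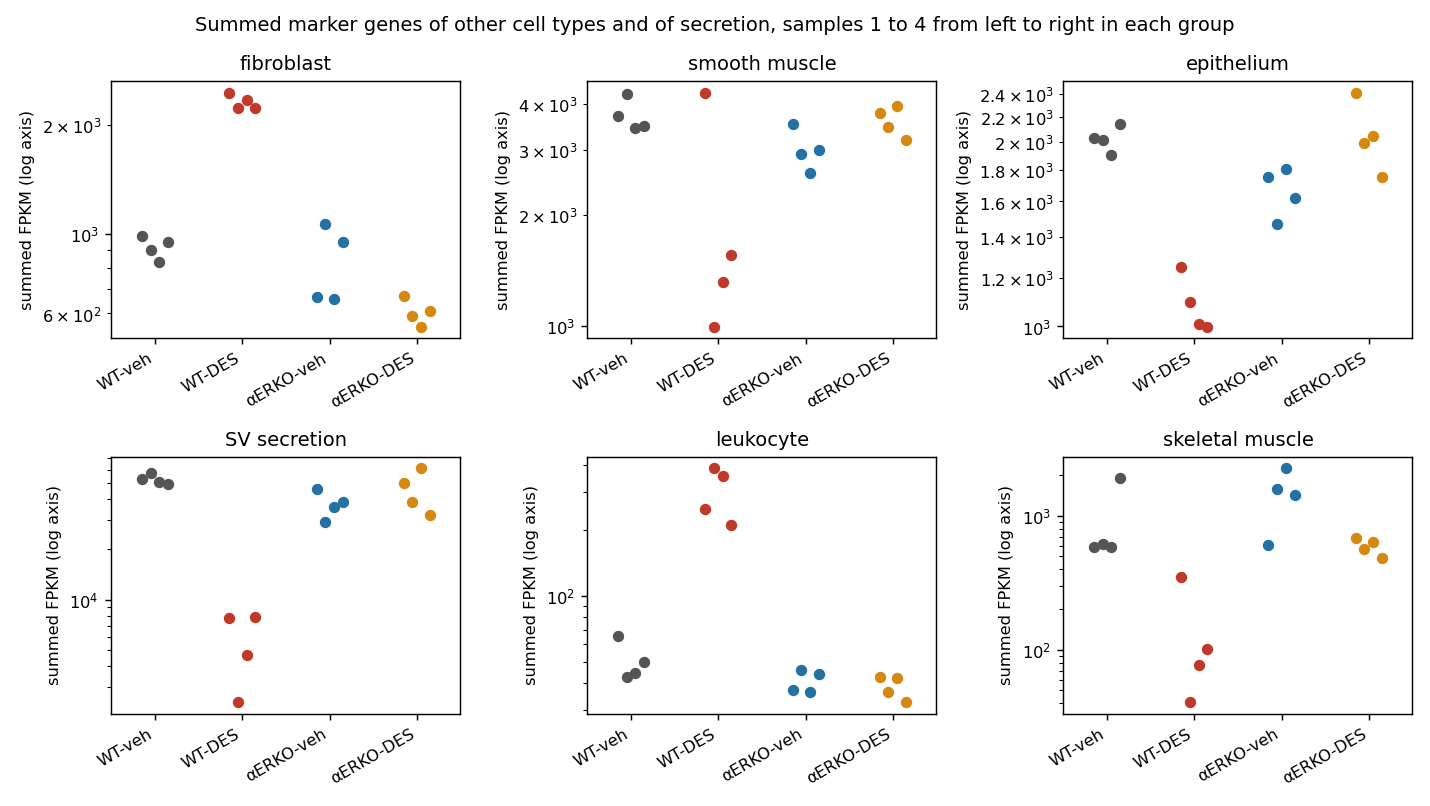
Summed FPKM of marker lists on a log axis, with 1 point per sample (samples 1 to 4 of each group from left to right). The fibroblast and leukocyte sums were higher in the WT-DES samples than in the other 12, the epithelial and secretory sums were lower, and WT-DES sample 1 lay with the other groups for smooth muscle.

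In αERKO-veh against WT-veh 3 of 10 skeletal muscle and 2 of 6 endothelial markers were higher, 1 of 8 fibroblast markers was lower, and no marker of the other 7 lists was called. Over all genes tested 4.5% were called higher and 2.63% lower. The skeletal muscle sum was 1418 to 2257 in αERKO-veh samples 2 to 4 and 1919 in WT-veh sample 4, against 40.6 to 683.9 in the other samples. αERKO-veh sample 2, with the highest *Fgf2* and *Fgfr1* of its group, also had the highest fibroblast (1061), endothelial (122.0 against 72.9 to 82.8), adipose (1369 against 146.6 to 587.9) and leukocyte (45.9) sums of its group, the lowest secretory and epithelial sums, and the highest rank correlation of relative expression with transcript length, 0.444, of all 16 samples. In αERKO-DES against αERKO-veh 6 of 8 adipose and 6 of 10 skeletal muscle markers were lower, and 1 each of the fibroblast, endothelial and anterior prostate markers, with median log2 changes of −3.16 for the adipose and −4.16 for the skeletal muscle list. Of all genes tested 1.41% were called lower there. In αERKO-DES against WT-veh, where no member was called, 5 of 8 fibroblast markers (median log2 change −0.63), 7 of 8 adipose markers (−3.32) and 1 of 5 anterior prostate markers were lower, and no marker was higher, beside 1.97% of all genes tested called lower and 1.21% higher. The part of these marker differences in the values of *Fgf2* and *Fgfr3* was not tested.

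The labels were checked with *Esr1*, which had 2.81 to 4.55 FPKM in WT-veh and 8.74 to 19.6 in WT-DES, and in αERKO mice 1.30 to 1.75 with vehicle and 0.91 to 1.64 with DES. Each αERKO sample was below each WT sample. Sequencing depth cannot be read from FPKM. The total FPKM was 375207 to 437619 in WT-DES and 479045 to 652708 in the other groups, and correlations of log2(FPKM + 1) between samples of a group were 0.913 to 0.960 in WT-DES and 0.963 to 0.986 in the others.

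Of all tested genes, the 3 whose pattern over the 16 samples was nearest to that of *Fgf10* were *Srsf12*, *Frmd7* and *Tmem150b*. Likeness was the root mean square difference of log2(FPKM + 1) after each gene's own mean was subtracted, which was 0.14, 0.15 and 0.16 for these genes, beside 0.51 for the spread of *Fgf10* itself. For *Fgfr2* the nearest were *Mtx3*, *Zfp40* and *5530601H04Rik*, at 0.10, 0.10 and 0.11, beside 0.27 for *Fgfr2*. *Mtx3* had 4.83 ± 0.450 FPKM in WT-veh and 7.60 ± 1.19 in WT-DES (n = 4), and *Frmd7* had 0.895 ± 0.105 and 2.70 ± 1.33.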

How the data were processed

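The deposited table holds FPKM per gene for 16 samples. According to the submitters' notes and the methods, the authors filtered paired-end Illumina reads by quality, aligned them to mm10 with TopHat2 2.0.4 and computed FPKM with Cufflinks 2.0.2. The annotation, the strand setting and any scaling between libraries are not given in the sources used here. Median-ratio factors of the deposited FPKM values were 0.994 to 1.02.

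FPKM is not a count, so limma 3.58.1 (R 4.3.3) was fitted to log2(FPKM + 1), with 1 mean per group over 16 samples, eBayes with a variance trend, two-sided tests and Benjamini-Hochberg adjustment over the 15988 genes whose mean FPKM was above 1 in any group. A pseudocount of 1 understates the change of low genes. Interaction calls needed a 1.5-fold difference at the same adjusted p as the pairwise calls, 0.05. Steps were tested on simulated data.

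Named genes are the 10 members, of each of 5 pathway lists up to 4 called genes with the largest change in each of WT-DES and αERKO-veh against WT-veh (other list genes may be named, and 1 gene under this rule is not reported here), *Esr1*, and the 3 genes nearest in pattern to *Fgf10* and *Fgfr2*. The members, pathway lists, 10 marker lists (fibroblast, smooth muscle, epithelium, basal epithelium, SV secretion, endothelium, leukocyte, adipose, skeletal muscle, anterior prostate) and motifs were chosen with earlier results of these data known. *Spink1* and *Adgre1* were matched as *Spink3* and *Emr1*. Transcript lengths are from GENCODE M21, coordinates and promoters from RefSeq. Tables were made in Python 3.11.15 (numpy 2.4.6, pandas 2.3.3) and plots with matplotlib 3.10.9. The alternatives were another pseudocount (0.1), minimum (none, 5), fold, adjusted p (0.01), model, weights, replicate block, scaling, a length correction, and leaving out each sample in turn.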

Additional observations from a re-analysis of the deposited data

Results flagged for a closer look

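Of the 40 sets of 4 samples (10 members in 4 groups), 3 held a sample whose gap to the nearest other exceeded, as a share of the range of its group, the critical value of Dixon for 4 samples, and chance flags about 1 in 20 sets. *Spry1* in WT-DES sample 2 was 46.5 FPKM against 39.0 to 39.6 in the other WT-DES samples. *Fgf7* in αERKO-DES sample 1 was 4.27 FPKM against 5.55 to 5.80. *Fgfr4* in αERKO-DES sample 2 was 2.25 FPKM against 0.48 to 0.67, and the mean of *Fgfr4* is above 1 FPKM in no other group.

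The log2 change with DES in WT mice less the log2 change in αERKO mice passed the interaction test of limma for 8 members. On the log2 scale these differences were 2.49 for *Fgf2*, 1.45 for *Fgf7*, 1.06 for *Fgf10*, 1.66 for *Fgfr1*, 0.61 for *Fgfr2*, 1.25 for *Fgfr3*, 0.86 for *Spry1* and 0.71 for *Spry2*. The marker lists differed between the genotypes in the same contrast, with 7 of 8 fibroblast, 10 of 10 leukocyte, 6 of 6 endothelial, 3 of 4 basal epithelial, 8 of 8 adipose and 4 of 10 skeletal muscle markers called in the same direction as these members, and 8 of 8 secretory, 6 of 8 epithelial, 5 of 8 smooth muscle, 4 of 5 anterior prostate and 1 of 10 skeletal muscle markers in the other. Over all genes tested the shares were 29.6% and 26.9%. The median difference of the adipose list was 4.85, with a median log2 change of 1.75 with DES in WT and −3.16 in αERKO, and that of the skeletal muscle list was 2.83, with −1.05 and −4.16. The part of these lists in the members' values was not tested.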

How the results depend on the processing

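The members were recomputed under 29 alternatives, 16 of which leave out 1 sample, wherever the gene was still tested. The interaction has no fit of only the groups compared. *Fgfr4* and *Spry4* have no value with a minimum mean FPKM of 5, and *Fgfr4* has none without the 20 most abundant genes or without αERKO-DES sample 2. Of the 1706 values obtained, 24 lost a call, 11 gained one, and 1 called value changed sign: *Spry4* in αERKO-DES against WT-DES, at 0.080 under quantile normalization. A further 28 of the 979 values called under neither setting changed sign.

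The number of members called in αERKO-veh against WT-veh was 2, and 1 with a minimum mean FPKM of 5, 0 at an adjusted p of 0.01, 1 after the length correction, and 1 to 2 when 1 sample was left out. In αERKO-DES against αERKO-veh it was 0, and 1 with sample weights. In the other comparisons it stayed within 1.5 times the reported number: 6 to 9 in WT-DES against WT-veh (7 reported), 6 to 9 in αERKO-DES against WT-DES (8), 0 in αERKO-DES against WT-veh, and 7 to 9 for the interaction (8). The causes were not tested.

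Deviations of samples with the same number in different groups had correlations of −0.215 to 0.277 over 24 pairs. No pairs with different numbers were set beside them, so this does not settle whether the numbers pair the samples. With a replicate block the numbers of members called were 7, 2, 0, 8, 0 and 8 in the order of the comparisons, as without it, and 8409 genes were called in WT-DES against WT-veh in place of 8428.

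Scaling without the 20 most abundant genes gave 1453 higher and 120 lower genes in αERKO-veh against WT-veh (719 and 420 reported), 2031 and 6589 in αERKO-DES against WT-DES (3797 and 4740), 213 and 194 in αERKO-DES against WT-veh (193 and 315), and 7288 and 1963 for the interaction (4729 and 4296). The median log2 change of all genes was then 0.11, −0.34, 0.01 and 0.51. Quantile normalization gave 3 and 2 genes in αERKO-DES against αERKO-veh (14 and 225) and 219 and 147 in αERKO-DES against WT-veh. It also gave 4182 higher and 3571 lower in αERKO-DES against WT-DES, and 3463 and 4182 for the interaction. Depth is unknown, so low members such as *Fgfr4* rest on the spread of 4 samples.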
